A study of Mus musculus with 12 samples.

Results

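The proteasome subunit genes were examined as 39 regions of histone H3 trimethylated at lysine 4 (H3K4me3) in cardiomyocyte (CM) nuclei sorted from the hearts of adult mice. The regions are the autosomal peaks of the deposited H3K4me3 table that carry the name of a protein-coding gene starting with Psma, Psmb, Psmc, Psmd, Psme, Psmf or Psmg. They belong to 38 genes, of 15848 peaks in the table, and *Psma3* alone had 2 peaks. The rule uses names and no measured value, but it was set with earlier results of these data known. The name also catches *Psmc3ip*, a meiotic recombination factor that is no part of the proteasome, and it was kept because the rule admits it.

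H3K4me3 was measured by chromatin immunoprecipitation and sequencing (ChIP–seq) with a Diagenode antibody in 3 libraries per genotype. Controls, named CtrlCre, were αMHC-Cre pos/+;Cpt1b+/+ mice, and the mutants, named Cpt1bcKO, were αMHC-Cre pos/+;Cpt1b fl/fl mice. *Cpt1b* encodes muscle carnitine palmitoyltransferase, which is needed for fatty acids to enter mitochondria and be oxidized. Both genotypes carried the αMHC-Cre transgene, which is active in CMs from embryonic stages, so the adult nuclei come from hearts that had developed without the gene and not from an acute loss. The labels give the tissue as adult CM and do not say whether the libraries of a genotype came from separate animals, so that p-values measure the spread between these libraries. A lower value can reflect fewer nuclei with the mark or less of it per nucleus, and these cannot be told apart.

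The proteasome degrades proteins that carry ubiquitin chains. Its 20S core is a barrel of alpha and beta subunits with the proteolytic sites inside, and the 19S cap holds a ring of ATPases that unfold substrates and non-ATPase subunits that bind and remove ubiquitin. Dedicated chaperones assemble both parts, alternative beta subunits replace the constitutive ones in the immunoproteasome, and separate activators open the barrel without the cap. In heart muscle the proteasome turns over sarcomere and mitochondrial proteins. H3K4me3 marks the promoters of active genes, and genes of such constitutive machines usually carry a compact peak over the start of transcription.

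Promoter sequence was taken from RefSeq on the GRCm38.p6 build, which has the coordinates of mm10, as windows from 250 bases before to 50 bases after each start. An entry was found for 31 of the 38 genes, with 32 promoters in all. *Psmd8* and *Psme4* are shown because their peaks had the largest differences between genotypes in either direction among peaks over a member's start. *Psmb5*, *Psmb6* and *Psmd9* are shown because, like *Psme4*, they hold the core of an antioxidant response element near the start, and *Psma1* because its 2 CCAAT boxes lie close together in a promoter whose peak values did not overlap between genotypes. Sequences run 5′ to 3′ on the strand of the gene, and capitals mark the matched motif on either strand. Positions below count from 0 at the start site.
*Psmd8*, chr7:29180697-29180762, minus strand, GGGCGG: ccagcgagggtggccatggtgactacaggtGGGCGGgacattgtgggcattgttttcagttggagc
*Psme4*, chr11:30771738-30771776, plus strand, antioxidant response element on the opposite strand: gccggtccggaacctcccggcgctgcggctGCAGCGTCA
*Psmb5*, chr14:54618004-54618072, minus strand, antioxidant response element: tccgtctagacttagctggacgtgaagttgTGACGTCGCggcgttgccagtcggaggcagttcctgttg
*Psmb6*, chr11:70525318-70525356, plus strand, antioxidant response element: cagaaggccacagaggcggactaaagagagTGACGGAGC
*Psmd9*, chr5:123228129-123228189, plus strand, antioxidant response element: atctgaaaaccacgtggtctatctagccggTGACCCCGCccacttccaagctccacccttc
*Psma1*, chr7:114276180-114276272, minus strand, CCAAT on both strands: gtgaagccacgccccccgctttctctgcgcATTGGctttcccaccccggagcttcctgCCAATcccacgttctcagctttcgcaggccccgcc

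The antioxidant response element, searched as TGACNNNGC on both strands, is the sequence bound by NRF1 and NRF2, the factors known to drive proteasome genes. It was present in 6 of 32 member promoters (18.8%) and in 12.4% of all 32851 promoters in the table. The matches lay at -47 in *Psmb5*, at -9 in *Psmb6*, at -31 in *Psmd9* and at -7 in *Psme4*, and far from the start, at -227 in *Psmc6* and at -247 in *Psmd12*. The GC box GGGCGG was found in 53.1% of member promoters against 35.7% of all, CCAAT in 28.1% against 37.4%, and TATAAA in 12.5% against 13.6%. These matches describe letters only. The 6 promoters with the antioxidant response element did not share a direction of the H3K4me3 difference between genotypes: the log2 difference was 0.22 at *Psmb5*, 0.02 at *Psmd9*, -0.00024 at *Psmb6*, -0.01 at *Psmd12*, -0.15 at *Psmc6* and -0.26 at *Psme4*.

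The values are counts in peaks divided by DESeq2 size factors and rounded by the authors, called normalized counts here. Because size factors centre the bulk of the peaks, each difference is relative to other peaks, and a loss of H3K4me3 shared by all peaks would not show. The paper reports a lower H3K4me3 level in Cpt1bcKO by western blot of sorted CM nuclei. Total counts in peaks, recovered from the rounded values, ranged from 763133 in CtrlCre replicate 2 to 2766416 in Cpt1bcKO replicate 2. Individual member peaks held from 25 to 618 counts in a library, and counting error alone was between 5.76% and 11.1% of the value at the median member. The *Cpt1b* peak held 428, 407 and 436 in CtrlCre and 572, 689 and 568 in Cpt1bcKO (log2 difference 0.52, adjusted p 0.0036, limma). Its position against the floxed exons was not tested, so it does not check the deletion. Of the CM markers fixed for this work, 8 of 8 genes had a tested peak, and *Myh6*, the αMHC gene itself, ranged from 1544 to 2930. Of their 9 peaks 8 were lower in Cpt1bcKO (median log2 difference -0.28), with 0 at an adjusted p under 0.05 and 4, all lower, at an unadjusted p under 0.05 (limma), where 12.8% of all tested peaks passed the latter. Summed over the 9 peaks, the values were 7392, 6761 and 8264 in CtrlCre and 6444, 7346 and 4997 in Cpt1bcKO. Cpt1bcKO replicate 3 was thus the lowest, and replicate 2 lay inside the control range. Of fibroblast markers 1 of 5 had a tested peak, of endothelial markers 1 of 5, of immune markers 0 of 5 and of smooth muscle and pericyte markers 2 of 4. *Acta2*, one of the latter and also a gene of immature CMs, held 97, 119 and 71 in CtrlCre and 29, 10 and 24 in Cpt1bcKO (log2 difference -2.23, adjusted p 7.4e-05), and the endothelial *Kdr* held 39, 91 and 64 against 31, 45 and 51. Any part of other cells in the member values was not tested.

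H3K4me3 stood high on proteasome genes. The member peaks had a median of 102 normalized counts per kb of peak (mean of the 6 libraries), against 70.8 for the 11059 tested autosomal protein-coding peaks, and 34 of 39 lay above that median while 27 lay above the upper quartile of 92.6. They were of ordinary width, with a median of 1587 bases against 1514 over the 15039 tested peaks. By the quartiles of width over tested peaks, 30 members were medium, 6 were broad and 3 were narrow. Median GC content was 52.2%, against 55.6% over tested peaks and 56.5% over the tested autosomal protein-coding peaks. The median ratio of observed to expected CpG was 0.65, against 0.64 and 0.68.

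**Figure D1:**
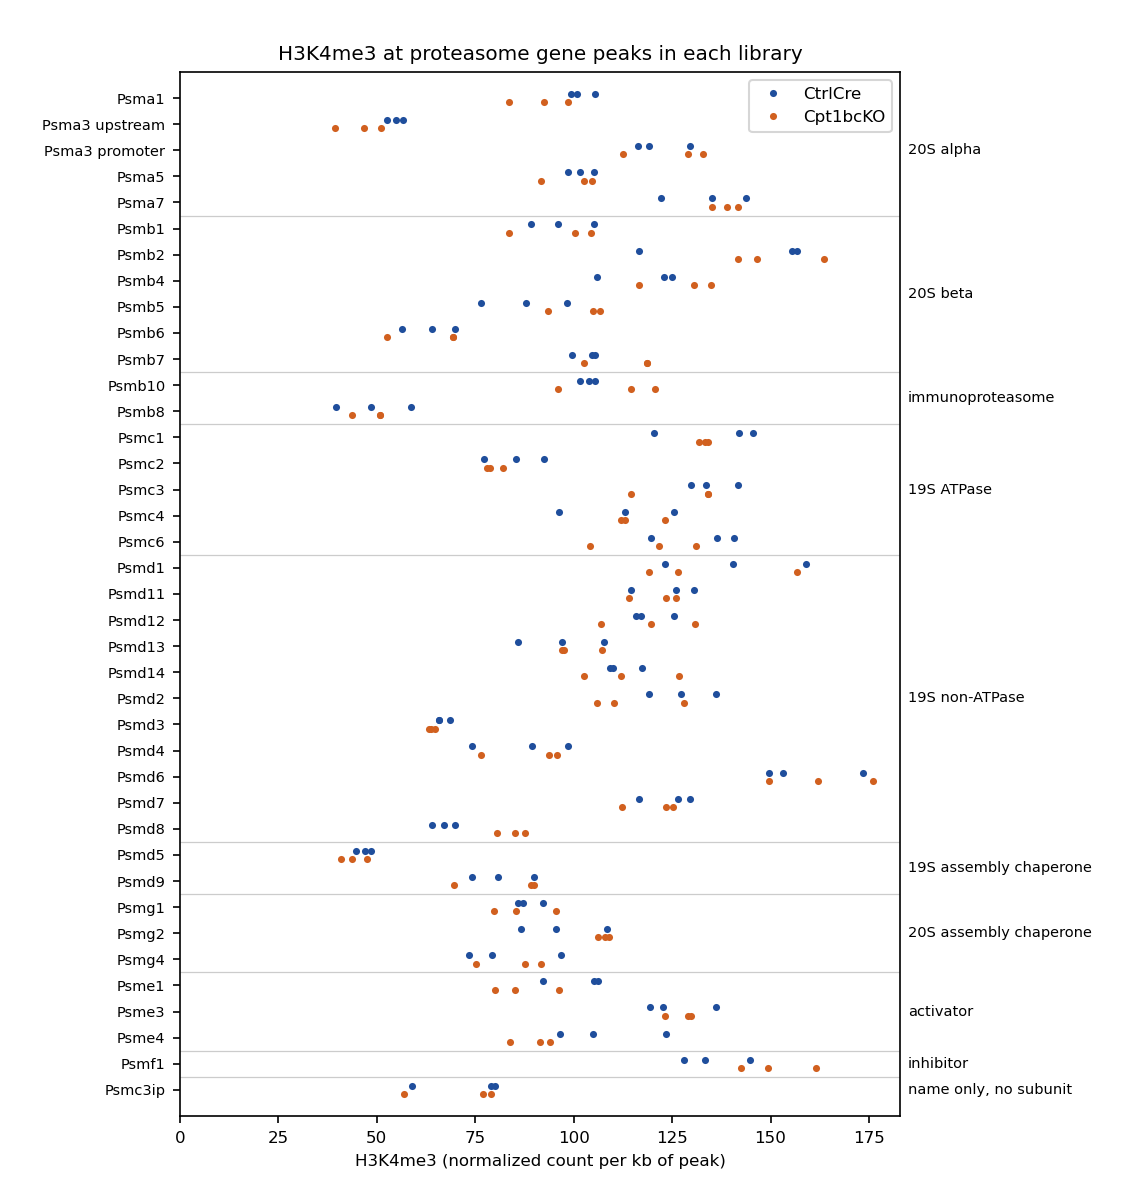
Each row is a proteasome gene peak, grouped by role, and each point is the normalized count per kb of peak in 1 library, blue for CtrlCre and orange for Cpt1bcKO. Levels span from 45.4 per kb at Psmd5 to 161 per kb at Psmd6 (means of 6 libraries), and at most peaks the points of the genotypes intermingle.

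Per kb, the level differed 3.54-fold between the highest and the lowest member, so that differences among genes were far larger than those between genotypes. The 5 highest were *Psmd6*, a subunit of the 19S lid (161 per kb), *Psmb2*, a 20S beta subunit without a proteolytic site (147), *Psmf1*, a regulator that inhibits the 20S core in vitro (143), *Psmd1*, a large scaffold subunit of the 19S base (138), and *Psma7*, a 20S alpha subunit (136). The 5 lowest were *Psmd5*, a chaperone of 19S assembly (45.4), *Psmb8*, a catalytic subunit of the immunoproteasome (48.7), the upstream peak of *Psma3* (50.2), *Psmb6*, which carries the caspase-like site (63.6), and *Psmd3*, a subunit of the 19S lid (65.3). Neighbours within each of these lists did not differ beyond their spread, since over the 6 libraries *Psmd6* ranged from 150 to 176 per kb and *Psmb2* from 117 to 164, and at the low end *Psmd5* from 40.9 to 48.5 and *Psmb8* from 39.7 to 58.8. The ranges of *Psmd6* and *Psmd5* were far apart. *Psmd5* and *Psmd3* were low per kb over wide peaks of 5358 and 3226 bases, whereas *Psmb8* was low outright, with the fewest normalized counts of all members (mean 61.3).

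By role, the median level per kb was 126 for the 5 peaks of 19S ATPases, 119 for the 11 of 19S non-ATPase subunits, 102 for the 6 of constitutive 20S beta subunits and 101 for the 5 of 20S alpha subunits. The 3 activators had a median of 99.0, the 3 chaperones of 20S assembly 87.6, and the 2 chaperones of 19S assembly lay at 45.4 and 82.3. The immunoproteasome genes were unlike each other, since *Psmb10* reached 107 per kb and *Psmb8* 48.7. Peaks of the core and cap thus stood above those of their chaperones by median, with overlap between individual genes, and this order is a description of few genes per role.

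**Figure D2:**
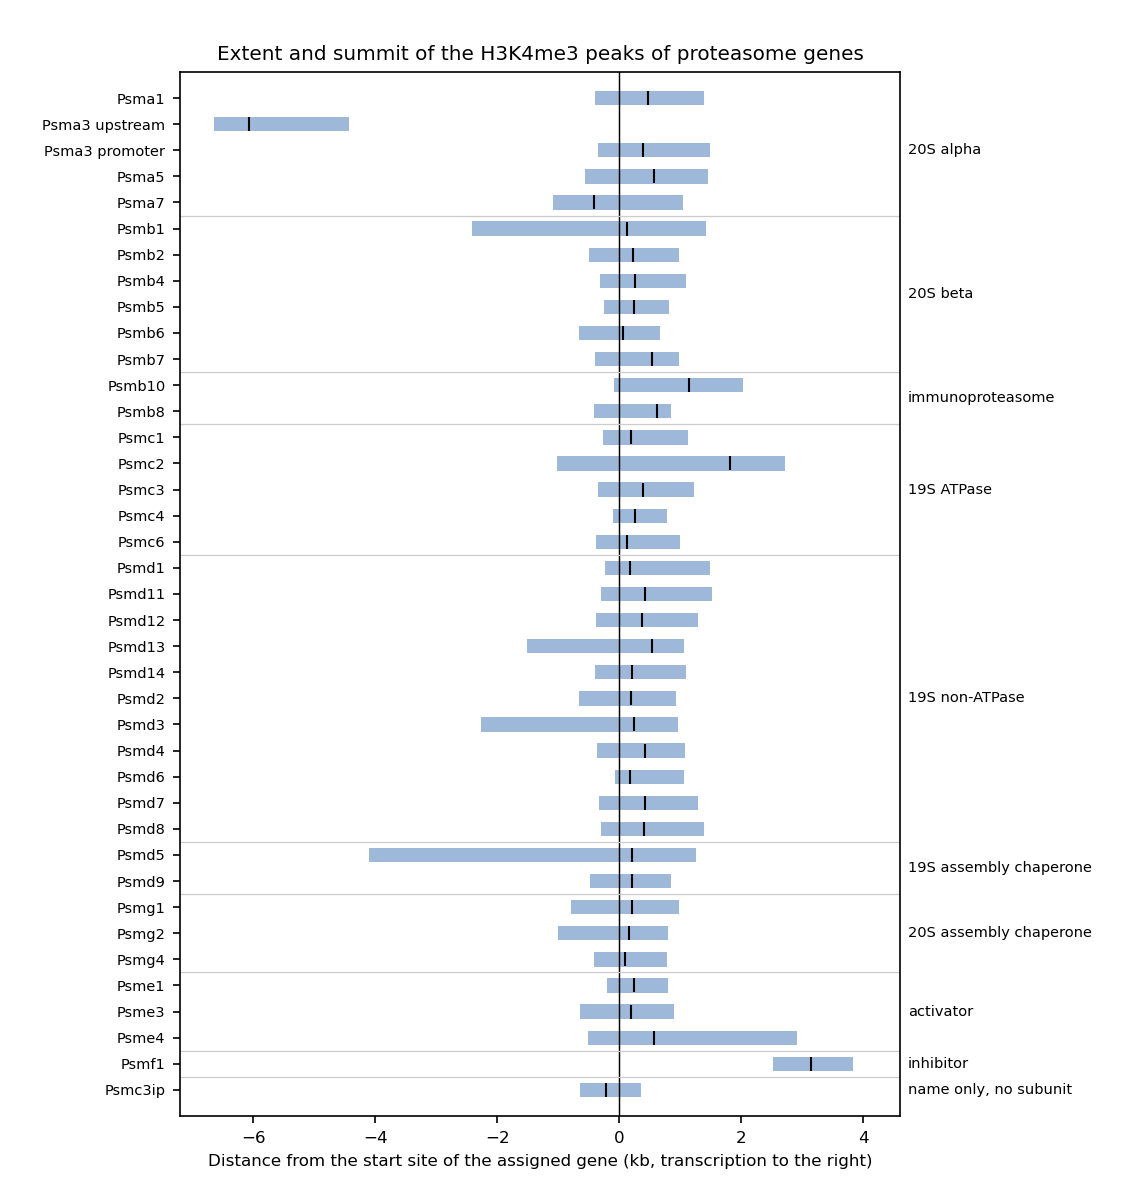
Bars give the extent of each peak relative to the start site that the table assigns to the gene, in kb with transcription to the right, and black ticks mark the summit. Most bars straddle the start with the summit inside the gene, while the upstream Psma3 peak and the Psmf1 peak stand off the line.

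The peaks sat on the starts of the genes and leaned into them. At 36 of 39 the summit lay downstream of the start, with a median of 244 bases, and the median peak reached 404 bases upstream and 1067 bases downstream. In the GENCODE vM21 annotation, 38 of 39 held the start of a coding transcript of their own gene. The exception was the upstream *Psma3* peak (chr12:70967986-70970195), whose near edge is 4426 bases upstream of the gene and which holds no coding start. The *Psmf1* peak lay 2514 bases or more inside the gene as annotated, over an inner start. Some peaks also held the start of a neighbouring coding gene: *Psmb1* shared its peak with *Tbp*, *Psmc2* with *Dnajc2*, *Psmd13* with *Sirt3*, *Psma7* with *Ss18l1*, *Psmg2* with *Cep76* and *Psmd5* with *Cutal*, 6 of 39 in all (15.4%, against 11.2% of tested autosomal protein-coding peaks). At these, the share of each gene in the signal cannot be told apart.

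The comparison of Cpt1bcKO with CtrlCre asks whether loss of *Cpt1b* changed H3K4me3 at these genes. No member passed an adjusted p under 0.05 (limma with Benjamini–Hochberg adjustment over all tested peaks), where 2.93% of all tested peaks did. At an unadjusted p under 0.05, the threshold of the study, 2 of 39 passed (5.13%), which is below the 12.8% of all tested peaks. The lowest adjusted p among members was 0.162. The genotypes did not overlap at 5 of 39 (12.8%), 1 higher and 4 lower in Cpt1bcKO, where 16.3% of tested peaks did not overlap.

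The differences were small. The median log2 difference was -0.0011 over members and 0.0057 over all tested peaks, with 18 members higher and 21 lower. In size, without regard to direction, the median difference was 0.06 on the log2 scale. It was 0.12 over autosomal protein-coding peaks and 0.10 over the 9628 tested peaks in the members' range of means. Those 9628 peaks had a lower median value than members (140 against 188 normalized counts) and a larger median SE (0.122 against 0.107). What part of the gap in size this makes was not tested. Mitochondrial ribosomal protein gene peaks had a median size of 0.08 and cytosolic ones of 0.13. At 27 of 39 the difference was under 0.1. The 95% interval lay within a 1.5-fold change in either direction at all 39 members tested and within 1.25-fold at 21. A 1.5-fold difference relative to other peaks thus lies outside the interval of every member, whereas smaller ones remain possible. A change shared by all peaks is not bounded by these intervals. The median ratio of the variance within genotypes to that expected from counting alone was 1.01 for members and 1.37 over tested peaks.

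**Figure D3:**
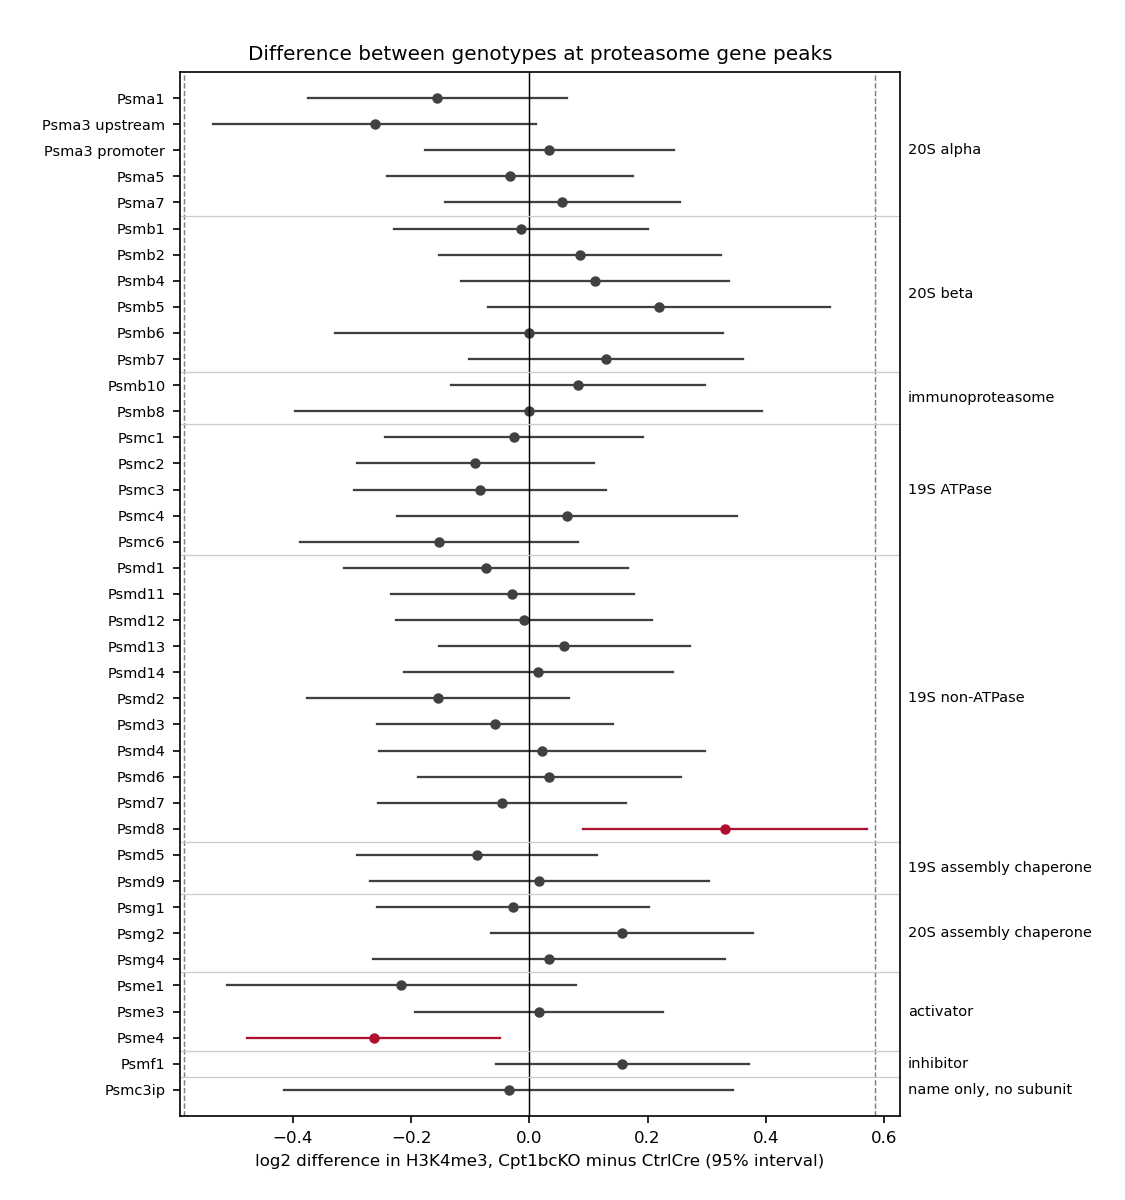
Points give the log2 difference in H3K4me3 (Cpt1bcKO minus CtrlCre, n = 3 libraries each) at each member peak, lines its 95% interval from limma, and red the 2 members with an unadjusted p under 0.05. Dashed lines mark a 1.5-fold difference, and all intervals lie between them.

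*Psmd8* encodes a non-ATPase subunit of the 19S lid. Its peak (chr7:29179306-29181008, mm10) held 119, 114 and 109 normalized counts in CtrlCre replicates 1 to 3 and 149, 137 and 145 in Cpt1bcKO replicates 1 to 3. All Cpt1bcKO libraries lay above all CtrlCre libraries. The means were 114 ± 5.0 and 144 ± 6.11 (SD, n = 3), a log2 difference of 0.33 (SE 0.12, unadjusted p 0.0091, adjusted p 0.162, limma). The unadjusted call held under all 15 alternatives tried and the adjusted one under 0, where the adjusted p ranged from 0.142 to 0.424.

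*Psme4* encodes the activator PA200, which is known to act on acetylated histones. Its peak (chr11:30771209-30774632) is 3423 bases wide and reaches 2906 bases into the gene. It held 359, 330 and 423 normalized counts in CtrlCre and 313, 322 and 287 in Cpt1bcKO. The groups did not overlap, but CtrlCre replicate 2 and Cpt1bcKO replicate 2 were only 8 counts apart on the normalized scale. The means were 371 ± 47.6 and 307 ± 18.2, a log2 difference of -0.26 (SE 0.10, unadjusted p 0.0177, adjusted p 0.238, limma). Without CtrlCre replicate 3 the difference was -0.16 (unadjusted p 0.137), and without Cpt1bcKO replicate 3 it was -0.22 (unadjusted p 0.0712), so the call rests on these libraries.

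At the other members whose genotypes did not overlap, Cpt1bcKO was lower and no threshold was passed. The upstream *Psma3* peak held 125, 121 and 116 in CtrlCre and 103, 113 and 87 in Cpt1bcKO, a log2 difference of -0.26 (SE 0.13, unadjusted p 0.0599, adjusted p 0.419). It passed the unadjusted threshold under 2 of 15 alternatives, and with GC correction the log2 difference was -0.18 (unadjusted p 0.168, limma). The peak over the *Psma3* start did not share this: with 213, 237 and 218 in CtrlCre and 236, 243 and 206 in Cpt1bcKO, the groups overlapped and the log2 difference was 0.03 (SE 0.10). Whether the upstream peak belongs to *Psma3* was not tested. *Psma1*, a 20S alpha subunit, held 177, 188 and 180 against 176, 165 and 149, with a single normalized count between the groups (log2 difference -0.16, SE 0.11). *Psmd3* held 221, 212 and 212 against 209, 206 and 204, where the groups were narrow and the gap was 3 (log2 difference -0.06, SE 0.10).

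Other 20S genes overlapped between genotypes. Among the constitutive beta subunits, the log2 difference ranged from -0.01 to 0.22, with 4 higher and 2 lower and a median of 0.10. The highest was at *Psmb5*, which carries the chymotrypsin-like site and held 104, 81 and 93 in CtrlCre and 111, 113 and 99 in Cpt1bcKO (unadjusted p 0.130). *Psmb6* held 75, 93 and 85 against 70, 92 and 92, and its means differed by less than the spread within either genotype. *Psmb2* held 231, 172 and 229 against 216, 241 and 209, where CtrlCre replicate 2, the shallowest library, was the low value. *Psma7* held 306, 288 and 260 against 296, 288 and 302 (log2 difference 0.06, SE 0.096).

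In the 19S cap, the 5 ATPases ranged from -0.15 to 0.06 in log2 difference, with 4 lower and 1 higher, and none passed a threshold. The 11 non-ATPase subunits ranged from -0.15 to 0.33 with a median of -0.01, and *Psmd8* was the single one past the unadjusted threshold. *Psmd6*, the member with the most H3K4me3 per kb, held 197, 170 and 174 in CtrlCre and 200, 184 and 170 in Cpt1bcKO, a log2 difference of 0.03 (95% interval -0.19 to 0.26). *Psmd1* held 274, 242 and 212 against 270, 218 and 205, and within each genotype replicate 1 was the highest. Scatter within genotypes at *Psmd1* was 4.05 times the counting variance, the highest ratio of any member. *Psmd4*, a ubiquitin receptor, and *Psmd14*, the deubiquitinase of the lid, were chosen after their values were seen and each had a log2 difference of 0.02.

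The immunoproteasome genes showed no difference that passed a threshold. *Psmb8* held 61, 74 and 50 in CtrlCre and 64, 55 and 64 in Cpt1bcKO (log2 difference -0.0011, 95% interval -0.40 to 0.39), the widest interval of the members. *Psmb10* held 214, 219 and 222 against 202, 254 and 241 (0.08, 95% interval -0.13 to 0.30). The wide interval at *Psmb8* reflects 32 to 89 counts per library. Its neighbour *Psmb9* starts in a peak that the table names for *Tap1*, the peptide transporter gene that shares its promoter region, and this held 117, 135 and 133 against 130, 138 and 128 (log2 difference 0.04).

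No assembly chaperone passed a threshold. *Psmg1* held 151, 153 and 162 in CtrlCre and 150, 168 and 140 in Cpt1bcKO, and *Psmg4* 88, 95 and 116 against 90, 105 and 110. *Psmg2*, the partner of *Psmg1* in the heterodimer that starts the alpha ring, held 172, 156 and 195 against 194, 196 and 191, and its Cpt1bcKO values were the tighter (SD 2.52 against 19.6). Its log2 difference was 0.16 (SE 0.11, unadjusted p 0.156). Of the 19S chaperones, *Psmd5* held 252, 260 and 240 against 234, 255 and 219, and *Psmd9* 119, 98 and 107 against 92, 118 and 119, so that both overlapped.

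The activators differed among themselves in the sign of the difference, and none passed the adjusted threshold. *Psme1*, a subunit of the interferon-induced activator PA28, held 91, 105 and 104 in CtrlCre and 79, 95 and 84 in Cpt1bcKO, a log2 difference of -0.22 (SE 0.14, unadjusted p 0.142). *Psme3*, the nuclear form, held 210, 184 and 189 against 200, 199 and 190 (0.02, SE 0.10). *Psme2*, the partner of *Psme1*, starts in a peak named for *Rnf31*, which held 207, 232 and 214 against 233, 259 and 250. There the groups did not overlap and Cpt1bcKO was the higher (0.18, SE 0.098, unadjusted p 0.0740, limma). The sign was opposite to *Psme1*, but the shares of *Psme2* and *Rnf31* in this peak cannot be told apart. The inhibitor *Psmf1* held 176, 191 and 169 against 197, 213 and 188 (0.16, SE 0.10, unadjusted p 0.143), with Cpt1bcKO replicate 3 below the highest control.

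**Figure D4:**
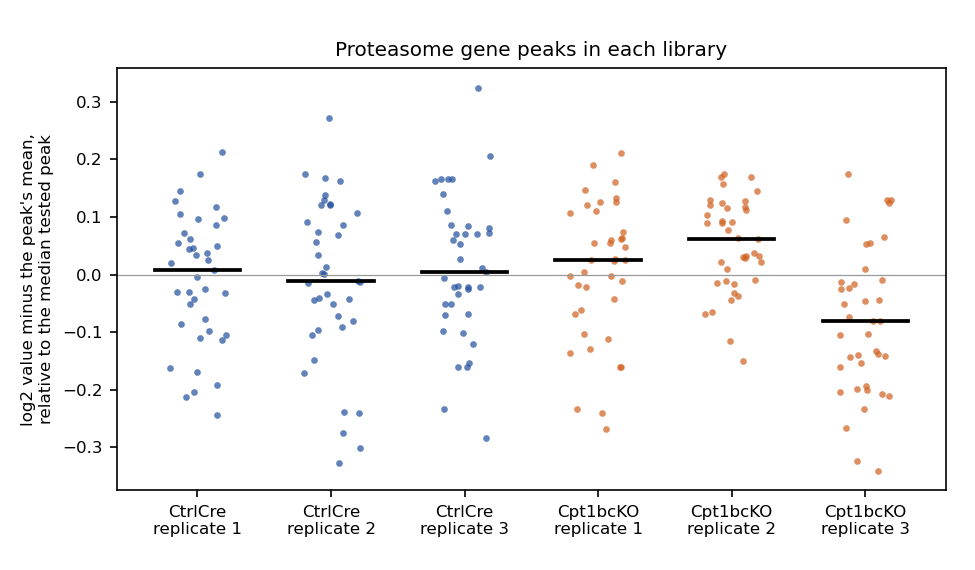
Each point is a proteasome gene peak in 1 library, drawn as its log2 value minus its mean over the 6 libraries and relative to the median tested peak; black bars are medians over the 39 peaks. The bar of Cpt1bcKO replicate 3 lies lowest (-0.08) and that of Cpt1bcKO replicate 2 highest (0.06).

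The member peaks as a group varied more among the mutant libraries than between the genotype means. Relative to all tested peaks, the median deviation of members was 0.0076, -0.01 and 0.0049 in CtrlCre replicates 1 to 3 and 0.02, 0.06 and -0.08 in Cpt1bcKO replicates 1 to 3, on the log2 scale. The genotype means were 0.00066 ± 0.0097 and 0.0021 ± 0.074 (SD, n = 3), so the spread was wider among Cpt1bcKO libraries. Cpt1bcKO replicate 3 gave the lowest value of its genotype at 29 of 39 members, where it did so at 38.4% of tested peaks in the members' range of means. The mitochondrial ribosomal protein genes had a like pattern, at 0.02, 0.08 and -0.09 in the 3 Cpt1bcKO libraries. The same library held the lowest *Myh6* value, 1544 against 2142 and 2446. Without it the median log2 difference of members was 0.03 and 1 member, *Psmd8*, passed the unadjusted threshold. At *Psma1* the log2 difference without this library was -0.09 (unadjusted p 0.440, limma), and at the upstream *Psma3* peak -0.16 (unadjusted p 0.264). At *Psme4* it was -0.22. The part of this library in the lower Cpt1bcKO values of *Psma1*, *Psma3* and *Psme4* was not tested beyond these values.

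The naming rule misses proteasome genes whose promoter peak bears another name. Of 50 coding genes with these names in GENCODE vM21, 38 had a peak of their own, 9 started in a peak with another name or none, and 3 (*Psma8*, *Psmb11* and *Psme2b*) had neither. *Psma8* is the testis form of an alpha subunit and *Psmb11* the thymus form of a beta subunit. The 9 were *Psma2*, *Psma4*, *Psma6*, *Psmb3*, *Psmb9*, *Psmc5*, *Psmd10*, *Psme2* and *Psmg3*, with levels from 40.8 to 157 per kb. Their log2 differences ranged from -0.07 at *Psma2* to 0.28 at *Psmg3* (108, 91 and 88 against 103, 128 and 117). As these peaks bear another name or none, the share of the proteasome gene in the signal cannot be told apart. Of the 9, 0 passed the unadjusted threshold, beside 12.8% of all tested peaks, and 1 did not overlap, beside 16.3%. The lowest adjusted p was 0.412.

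The ribosomal protein genes, which encode the other large constitutive protein machines, served for comparison. By median their levels were close to those of the proteasome, at 100 per kb for 68 cytosolic and 108 for 66 mitochondrial ribosomal peaks, against 102. The median log2 difference was -0.0011 for proteasome, 0.0081 for mitochondrial ribosomal and 0.11 for cytosolic ribosomal peaks, of which 62 of 68 were higher in Cpt1bcKO. At an unadjusted p under 0.05 there were 2 of 39 proteasome, 0 of 66 mitochondrial and 14 of 68 cytosolic peaks (20.6%), beside 12.8% of all tested peaks. At an adjusted p under 0.05 (limma) there were 1 of 68 cytosolic and 0 of 66 mitochondrial peaks, beside 2.93% of all tested peaks. The 1 was *Rpl3l*, a muscle form that was named after its values were seen, with 99, 102 and 137 in CtrlCre and 40, 52 and 23 in Cpt1bcKO. The mitochondrial set includes the *Mrpl32* peak, in which *Psma2* also starts. Differences between these families were not tested.

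**Figure D5:**
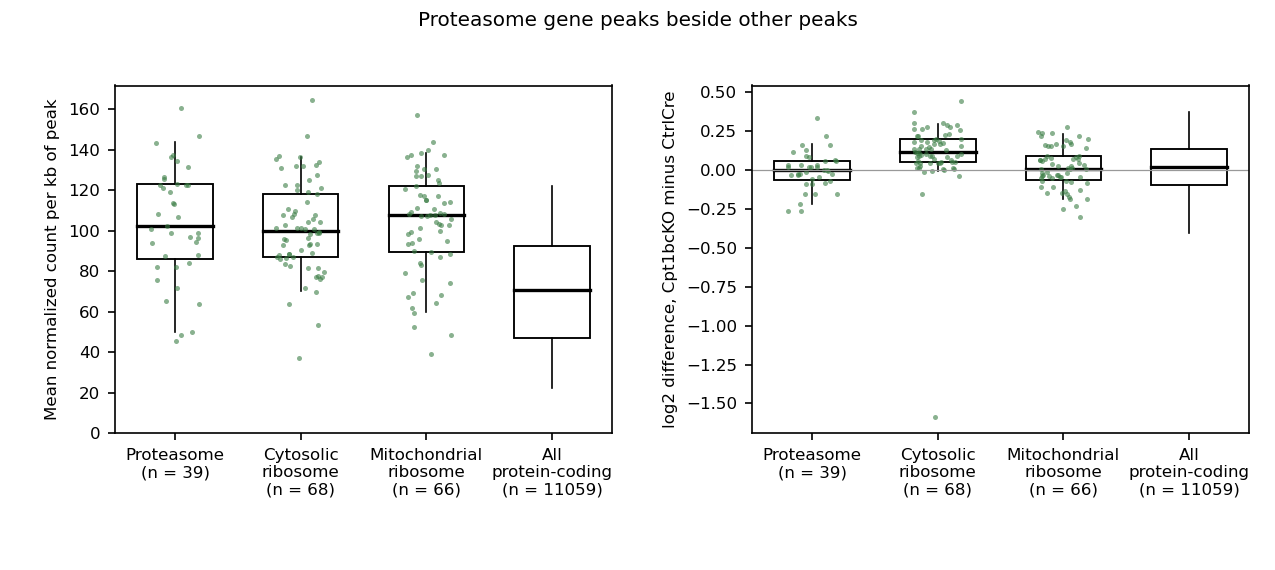
Left, mean normalized count per kb of peak, and right, log2 difference (Cpt1bcKO minus CtrlCre), for proteasome, cytosolic and mitochondrial ribosomal protein gene peaks (points) and for all autosomal protein-coding peaks. Boxes give the quartiles with the median as a thick line and whiskers the 5th and 95th percentiles; the proteasome median is 102 per kb and its log2 differences centre on 0, and the lone low point is Rpl3l.

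Genes that act with the proteasome were taken from a list of 37 ubiquitin, shuttle and regulator genes, of which 30 had a tested peak. None passed the adjusted threshold (limma), and 3 that were higher in Cpt1bcKO passed the unadjusted one. Of all tested peaks, 2.93% and 12.8% passed these thresholds in either direction. Counting only peaks higher in Cpt1bcKO, 879 of 15039 passed the unadjusted one. *Nfe2l1* encodes NRF1, the factor that induces proteasome genes when proteasome activity falls, and held 538, 558 and 549 in CtrlCre and 665, 681 and 603 in Cpt1bcKO. The groups did not overlap (log2 difference 0.24, SE 0.097, unadjusted p 0.020, adjusted p 0.255). The other two, named after their values were seen, were *Usp14*, the deubiquitinase that binds the cap (186, 156 and 170 against 216, 214 and 211), and *Ubqln1*, a shuttle for ubiquitylated proteins (187, 170 and 179 against 215, 213 and 224). These 3 also did not overlap between genotypes, which passing the unadjusted threshold makes likely. Over the whole list 8 of 30 peaks did not overlap, where 16.3% of all tested peaks did not.

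*Nfe2l2*, which encodes NRF2, held 300, 316 and 331 against 314, 359 and 332 (0.08, SE 0.095), and *Pomp*, the chaperone that matures the 20S core, 258, 246 and 232 against 269, 255 and 235 (0.04, SE 0.098). Both overlapped between genotypes. Of the 14 genes of class I antigen presentation and interferon response, which the immunoproteasome serves, 13 had a tested peak. At these, 0 of 14 peaks passed either threshold by limma, beside 2.93% and 12.8% of all tested peaks. The median log2 difference of the 14 peaks was -0.03.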

How the data were processed

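The members and gene lists were chosen with earlier results of these data known. Per the labels, the paper's methods and the file header, the authors trimmed reads (Trimmomatic 0.39), aligned them to mm10 (STAR 2.6.1d), removed duplicates (Picard 2.21.7), called peaks against input with MUSIC (false discovery rate 0.2), merged them, and assigned genes within 5000 bases of a start. The deposited values per library are counts divided by DESeq2 1.26.0 size factors and rounded by the authors, treated as a score. The deposited genotype means are the same signal unrounded, and the authors also deposited the fraction of each peak inside the gene and its distance to the start. Fold changes and p-values of the authors were not used. Input libraries entered no comparison.

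Peaks with a mean of at least 10 were tested (15039) with limma 3.58.1 in R 4.3.3 on log2(value + 1), with genotype as the term, two-sided, with Benjamini–Hochberg adjustment. The study's unadjusted threshold of 0.05 is given beside it. Whole counts were recovered from the rounded values and the unrounded means at 15848 of 15848 peaks. Fits were tested on simulated data. Named members were those past the unadjusted threshold or not overlapping, the 5 highest and 5 lowest per kb, immunoproteasome, activator and chaperone genes and those with more than 1 peak. Alternatives were quantile normalization, pseudocounts of 0.5 and 5, no filter, a mean of at least 50, limma-voom on recovered counts, GC correction, the replicate block and leaving out each library. A result of the ubiquitin gene list is not reported here.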

Additional observations from a re-analysis of the deposited data

How the results depend on the processing

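The count of members at an adjusted p under 0.05 was 0 under all 15 alternatives, and the lowest adjusted p among members ranged from 0.0894 (without CtrlCre replicate 2) to 0.423. At an unadjusted p under 0.05 the count of 2 was unchanged under 12, 3 with quantile normalization, and 1 to 3 when a library was left out; the single one without Cpt1bcKO replicate 3 was *Psmd8*, and without CtrlCre replicate 3 *Psmg2* took the place of *Psme4*. limma-voom on recovered counts called 503 of all tested peaks at an adjusted p under 0.05 against 441. The median log2 difference ranged from -0.04 to 0.03 when a library was left out.

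Replicate numbers are shared between genotypes, but same-numbered libraries did not deviate together over tested peaks (correlations 0.076, -0.081 and 0.105). Whether they shared a preparation cannot be told from this, since size factors remove a shift common to all peaks. With the replicate block the count at an unadjusted p under 0.05 was 2, at an adjusted p under 0.05 it was 0, and the median was -0.0011, or 0.01 with GC correction as well. The level of members per library takes no block, so none was given.

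Differences near 0 changed sign. *Psmb6* was 5.1e-05 with a pseudocount of 5, 0.087 with limma-voom, and 0.020 with GC correction, with or without the replicate block. *Psmb8* was 0.041 with quantile normalization and 0.052 with limma-voom, and *Psme3* -0.0059 with limma-voom. Leaving out 1 library at a time gave the ranges -0.013 to 0.11 at the start of *Psma3*, -0.0077 to 0.11 at *Psma7*, -0.054 to 0.16 at *Psmb2*, -0.081 to 0.13 at *Psmb6*, -0.14 to 0.14 at *Psmb8*, -0.19 to 0.018 at *Psmd1*, -0.025 to 0.099 at *Psmd6*, -0.051 to 0.14 at *Psmd9*, -0.021 to 0.073 at *Psme3*, -0.099 to 0.032 at *Psmg1* and -0.051 to 0.15 at *Psmg4*. Depth limits the narrowest statements: at *Psmb8* and *Psmc3ip*, with 25 to 120 counts per library, intervals are the widest.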

Other observations

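Of 14 ubiquitin ligase and atrophy genes of muscle, 14 had a tested peak, 0 passed an adjusted p under 0.05 (limma) and 4 an unadjusted p under 0.05, 1 higher and 3 lower in Cpt1bcKO, where 2.93% and 12.8% of all tested peaks passed these thresholds. The 4 were named after their values were seen. *Trim55*, a sarcomeric ligase, held 306, 314 and 309 normalized counts in CtrlCre and 239, 277 and 239 in Cpt1bcKO, with no overlap (log2 difference -0.30, SE 0.096). *Fbxl22* and *Asb2*, ligase subunits that act on sarcomere proteins, had log2 differences of -0.28 and -0.24, and *Trim54*, a relative of *Trim55*, of 0.27, with overlapping genotypes at each. Of the best known atrophy ligases, *Trim63* held 377, 393 and 419 against 412, 386 and 364, and *Fbxo32* 465, 521 and 525 against 448, 515 and 475, with overlap at both.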
